A study of Canis lupus familiaris with 4 samples.

Results

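In CLBL-1, a cell line from a canine diffuse large B-cell lymphoma, 5840 regions of captured, methylated DNA lay outside CpG islands and shared no base with any region listed for CLBL-1 8.0, the line's doxorubicin-resistant derivative. They were chosen by their presence in the CLBL-1 list and absence from the CLBL-1 8.0 list, so the absence itself is a description and carries no test. They made up 8.25% of the 70781 CLBL-1 non-island regions and were drawn from a list of 82247 regions, and the lists of both lines together held 205668. They are called CLBL-1-only regions here, and the 64941 CLBL-1 non-island regions that met a CLBL-1 8.0 region are called shared. CLBL-1 8.0 was kept in medium with 8 µM doxorubicin, a topoisomerase II poison, and is labelled resistant to it, while CLBL-1 is labelled as not chemoresistant. Both lines carry the labels lymph node and tumour stage IV, and each gave a low salt and a high salt eluate of MethylCap-seq, in which a methyl-CpG binding domain protein captures methylated fragments for sequencing. The 4 libraries were reported as 1 region list per line, with no replicates and with read depth unknown. The sources used here do not say whether the resistant line is 1 clone, and captured DNA does not measure expression, so the labelled cell type could not be checked against its marker genes.

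CpG islands are short stretches of DNA rich in CpG that often lie at promoters and are mostly kept free of methylation in normal cells. Their flanks, the shores, and the CpG-poor open DNA of introns and intergenic space are where methylation varies most between cell types and between tumours. In lymphomas, loss of methylation is typical of open DNA, and gain is typical of islands of silenced genes. A region absent from a list fell below the authors' calling threshold in that line, and this does not show that its DNA was unmethylated.

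The CLBL-1-only regions were more weakly enriched and shorter than the shared regions, although most weak or short CLBL-1 regions were shared. Their fold enrichment, the authors' ratio for each region, reached 18.7 with a median of 3.84, against a median of 6.78 in shared regions. Their median length was 335 bp, against 556 bp in shared regions, and together they covered 2169382 bp. Of the 4241 CLBL-1 non-island regions with a fold of 2 to 3, 34.4% were CLBL-1-only, and of the 6367 with a fold of 15 or more, 0.141% were, which is 9 regions. The share fell with each step of fold between these ends, with 13.2% at a fold of 4 to 5, 7.44% at 5 to 6 and 1.35% at 8 to 10. By length the same order was seen, with 29.6% of regions under 300 bp and 0.284% of those of 1000 bp or more, 24 of 8452. A longer region more easily shares 1 bp with another, and how much this adds to the order by length was not tested. Apart from 1 alternative that limits both lists to the same fold, folds are compared within the CLBL-1 list, since the sources used here do not give the background they refer to.

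Some of the strength behind these regions can be read from the fold values. In 1497 CLBL-1-only regions, or 25.6%, the fold was a whole multiple of 0.339, as it was in 20.5% of shared regions. The peak caller MACS2 adds 1 to both the pileup and the background before dividing, and under that reading such regions were set against a genome-wide background. The median CLBL-1-only region on this step then had a pileup of 13 fragments (quartiles 11 and 16), against 17 (13 and 25) in shared regions. A pileup is a height at 1 point, not the number of fragments in the whole region. Regions on the step had median folds of 4.75 (CLBL-1-only) and 6.105 (shared), against 3.84 and 6.78 over all, so they do not stand for the whole sets. The authors' settings are unknown, so these pileups are an estimate.

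CLBL-1-only regions lay in open DNA more often than shared regions did, but far less often than the regions listed only in CLBL-1 8.0. Open DNA held 3563 of them, 61.0% (Wilson 95% interval 59.8 to 62.3%, counting error only), against 53.8% of shared regions. Of the 46633 non-island regions listed only in CLBL-1 8.0, 90.2% were in open DNA and 9.79% in shores, against 39.0% shores among CLBL-1-only regions. Introns held 40.2% of CLBL-1-only regions, 38.1% of shared regions and 50.2% of those listed only in CLBL-1 8.0. Intergenic DNA held 32.6%, 31.4% and 27.3% of the same sets, so neither class set the CLBL-1-only regions far apart from shared ones. The promoter flag, which marks regions upstream of a gene's start or at it, was on 6.95% of CLBL-1-only regions and 11.6% of shared regions. The flag for a transcription start was the most uneven, on 1.04% of CLBL-1-only regions and 5.22% of shared regions. The enhancer flag was on 4.64% of CLBL-1-only regions and 5.33% of shared regions.

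**Figure D1:**
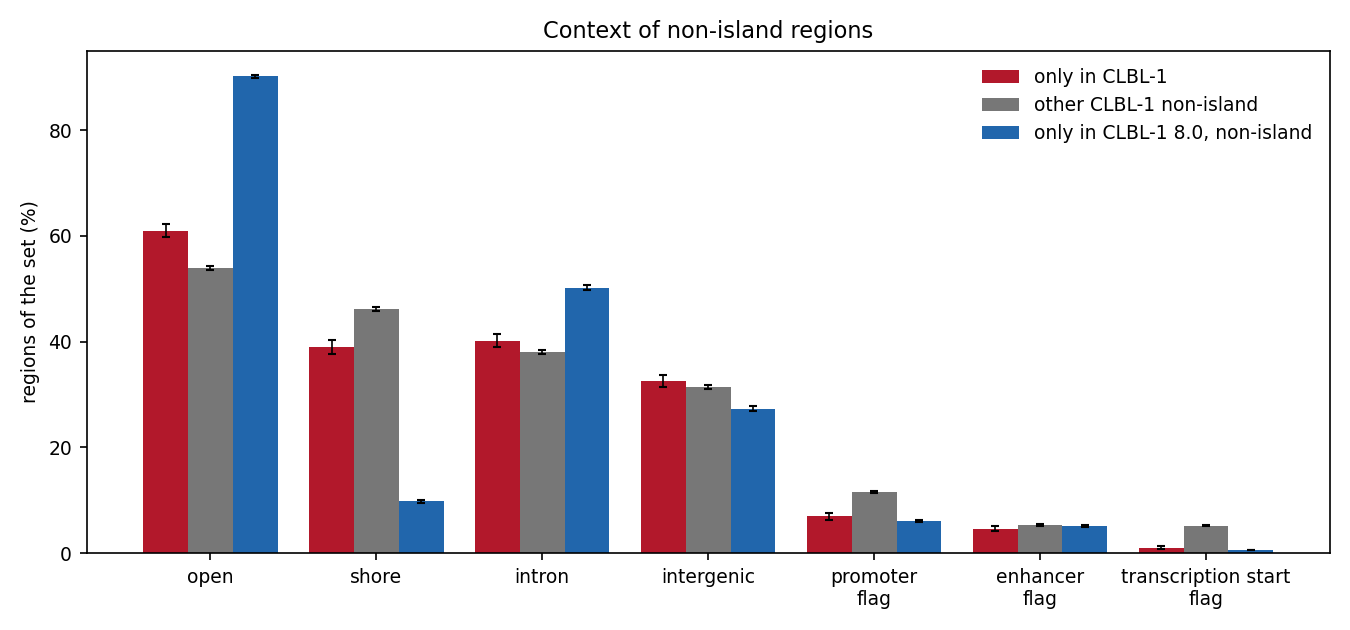
Share of regions (%) by CpG context, location class and flag, in regions listed only in CLBL-1, other CLBL-1 non-island regions and non-island regions listed only in CLBL-1 8.0; bars carry Wilson 95% intervals. Open DNA holds 61.0%, 53.8% and 90.2% of the 3 sets, and the transcription start flag 1.04%, 5.22% and 0.588%.

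The difference between open DNA and shores depended on the fold. At a fold of 2 to 3, 34.2% of open regions and 34.5% of shores were CLBL-1-only, so context made little difference there. At 3 to 4 the shares were 23.1% of open regions and 14.9% of shores, and at 5 to 6 they were 10.1% of open regions and 3.04% of shores. When both lists were limited to regions with a fold of at least 4, 9436 CLBL-1 non-island regions met no CLBL-1 8.0 region of that fold. These include regions that met a CLBL-1 8.0 region of lower fold, since only 2695 of them met none at all. Under this rule 16.4% of open regions and 16.3% of shores were counted as CLBL-1-only. The difference by context was thus absent under this rule, which puts the folds of both lists on 1 scale although their backgrounds may differ. Among the 366 CLBL-1-only regions whose fold reached the median of shared regions, 77.9% were open, against 53.2% of the 32720 shared regions at or above it. Regions with the transcription start flag were the least often CLBL-1-only in the range of fold from 2 to 4, with 29 of 192, or 15.1%, against 24.3% of regions with neither that flag nor the promoter flag. At a fold of 8 or more, 2 of 2243 regions with the start flag were CLBL-1-only.

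**Figure D2:**
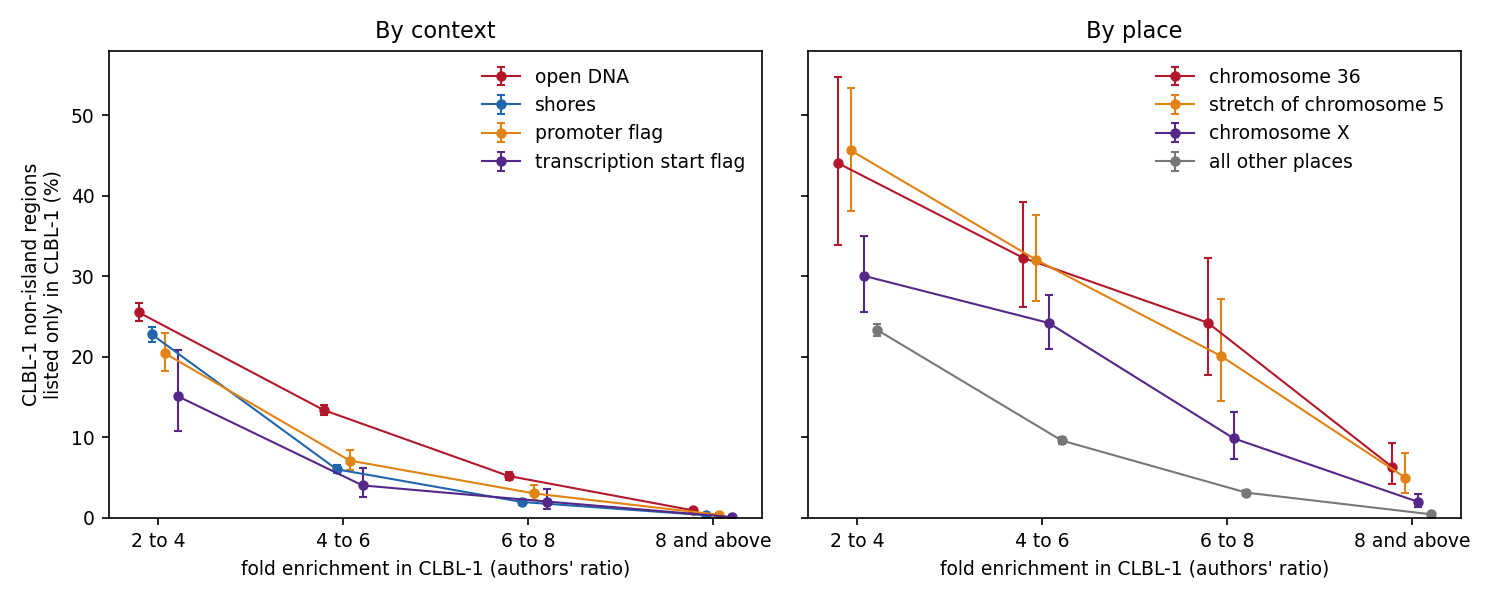
Share of CLBL-1 non-island regions listed only in CLBL-1 (%) against the authors' fold enrichment in 4 ranges, by context (left) and by place (right); bars are Wilson 95% intervals. The share falls with fold in every set plotted, and chromosome 36, the chromosome 5 stretch and chromosome X lie above all other places in each range of fold.

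Most CLBL-1-only regions had a CLBL-1 8.0 region close by. The distance to the nearest one had a median of 1545 bp and ranged from 1 to 333888 bp. Within 500 bp lay 19.6% of them, within 2000 bp 58.3%, and 646 were more than 10000 bp away. The regions listed only in CLBL-1 8.0 were much farther from the other list, with a median of 10317 bp and 18.2% within 2000 bp. The lists searched differ in length, with 123421 regions in CLBL-1 8.0 and 82247 in CLBL-1, and a longer list leaves shorter distances to it, so these medians are not on equal terms. Shores were closer than open DNA: CLBL-1-only shores lay a median of 925 bp from a CLBL-1 8.0 region, and CLBL-1-only open regions 2326 bp. For 4555 of the CLBL-1-only regions, 78.0%, that nearest neighbour, at any distance, was a CLBL-1 8.0 region that itself met a CLBL-1 region. Most CLBL-1 8.0 non-island regions did so in any case: of 110781, 46633 met no CLBL-1 region. The nearest neighbours could also be islands, which this count leaves out, so the sets differ. If a CLBL-1 8.0 region within 2000 bp is counted as sharing, 2433 CLBL-1-only regions are left, 18.2% of them shores. At the edge of the rule, a shore in an intron of LGR6, a receptor for R-spondins, lay 1 bp from a CLBL-1 8.0 region and had a fold of 2.66, while an intronic region of LOC102154816 on chromosome 6 shared 1 bp with one and had a fold of 2.54.

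**Figure D3:**
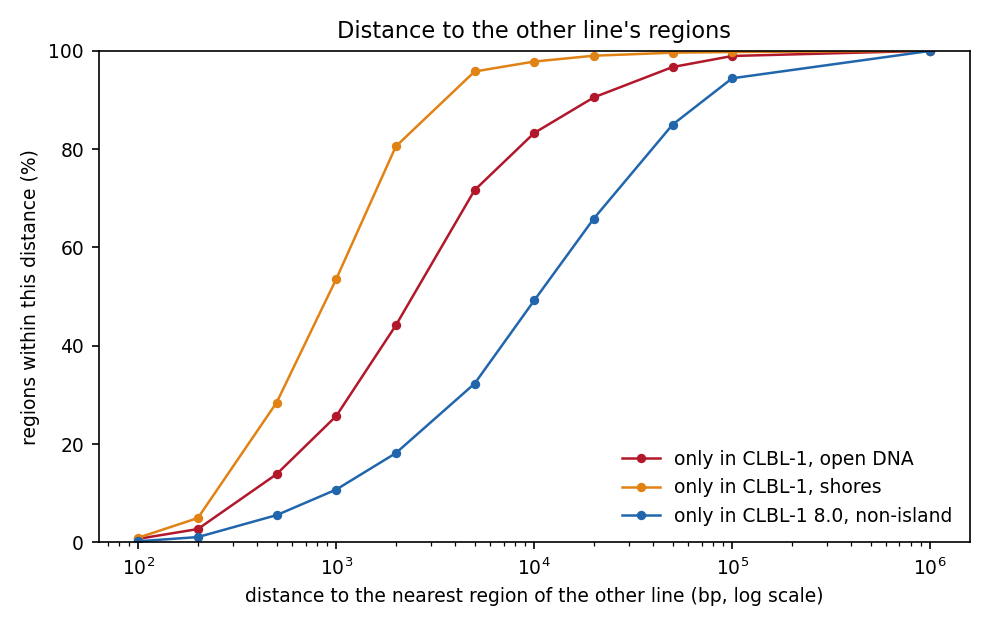
Cumulative share of regions (%) within a given distance (bp, log scale) of the nearest region of the other line, for CLBL-1-only open regions, CLBL-1-only shores and non-island regions listed only in CLBL-1 8.0. Within 2000 bp lie 44.1% of the open regions, 80.5% of the shores and 18.2% of the regions listed only in CLBL-1 8.0.

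The regions were spread over the genome but not evenly. Of 39 chromosomes with at least 100 CLBL-1 non-island regions, chromosome 36 had the highest share of CLBL-1-only regions, 154 of 761 or 20.2% (17.5 to 23.2%). Chromosome X followed with 12.5%, 327 of 2626, and chromosome 35 had the lowest share, 3.58%, 29 of 810. The median over the 39 chromosomes was 8.25%. With both lists limited to a fold of at least 4, chromosome 36 had 23.0% and chromosome 35 had 12.3%, against 16.4% over all. These 2 chromosomes thus lay closer together, but they were picked as the highest and lowest. No other whole chromosome was recomputed under this rule. Over all chromosomes CLBL-1 8.0 had 110781 non-island regions, against 70781 in CLBL-1, a ratio of 1.57. Chromosome 36 was also the 1 chromosome of the 39 where CLBL-1 8.0 had fewer non-island regions than CLBL-1, 652 against 761. Chromosome X had 3085 in CLBL-1 8.0 against 2626 in CLBL-1, a ratio of 1.17, while the ratio on chromosomes 9, 24 and 5, next in the order, was 1.53, 1.42 and 1.49.

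Within chromosome 5 the regions were concentrated in 1 stretch. Between 25 and 50 Mb, 212 of 905 CLBL-1 non-island regions were CLBL-1-only, 23.4% (20.8 to 26.3%), against 189 of 3096, 6.10%, on the rest of the chromosome. CLBL-1 8.0 had 895 non-island regions in the stretch, against 905 in CLBL-1, and 5047 outside it, against 3096 in CLBL-1. This stretch was picked after the windows had been seen. The first 5 Mb of chromosome X, which reach the genes PRKX, DHRSX and CD99, had a similar share, 59 of 267 or 22.1%. They too were picked after the windows had been seen. Other windows of 5 Mb with such shares included chromosome 2 from 85 to 90 Mb, 24.1%, and chromosome 28 from 40 to 45 Mb, 22.2%.

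The higher share on chromosome 36, in the chromosome 5 stretch and on chromosome X was seen in each range of fold. At a fold of 4 to 6, 32.3% of regions on chromosome 36, 32.1% in the chromosome 5 stretch and 24.2% on chromosome X were CLBL-1-only, against 9.61% in all other places. At a fold of 8 or more the shares were 6.29% on chromosome 36, 4.98% in the chromosome 5 stretch and 1.97% on chromosome X, against 0.434% in all other places. Of the 366 CLBL-1-only regions at or above the median fold of shared regions, 127 were on chromosomes 36, X and 5.

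**Figure D4:**
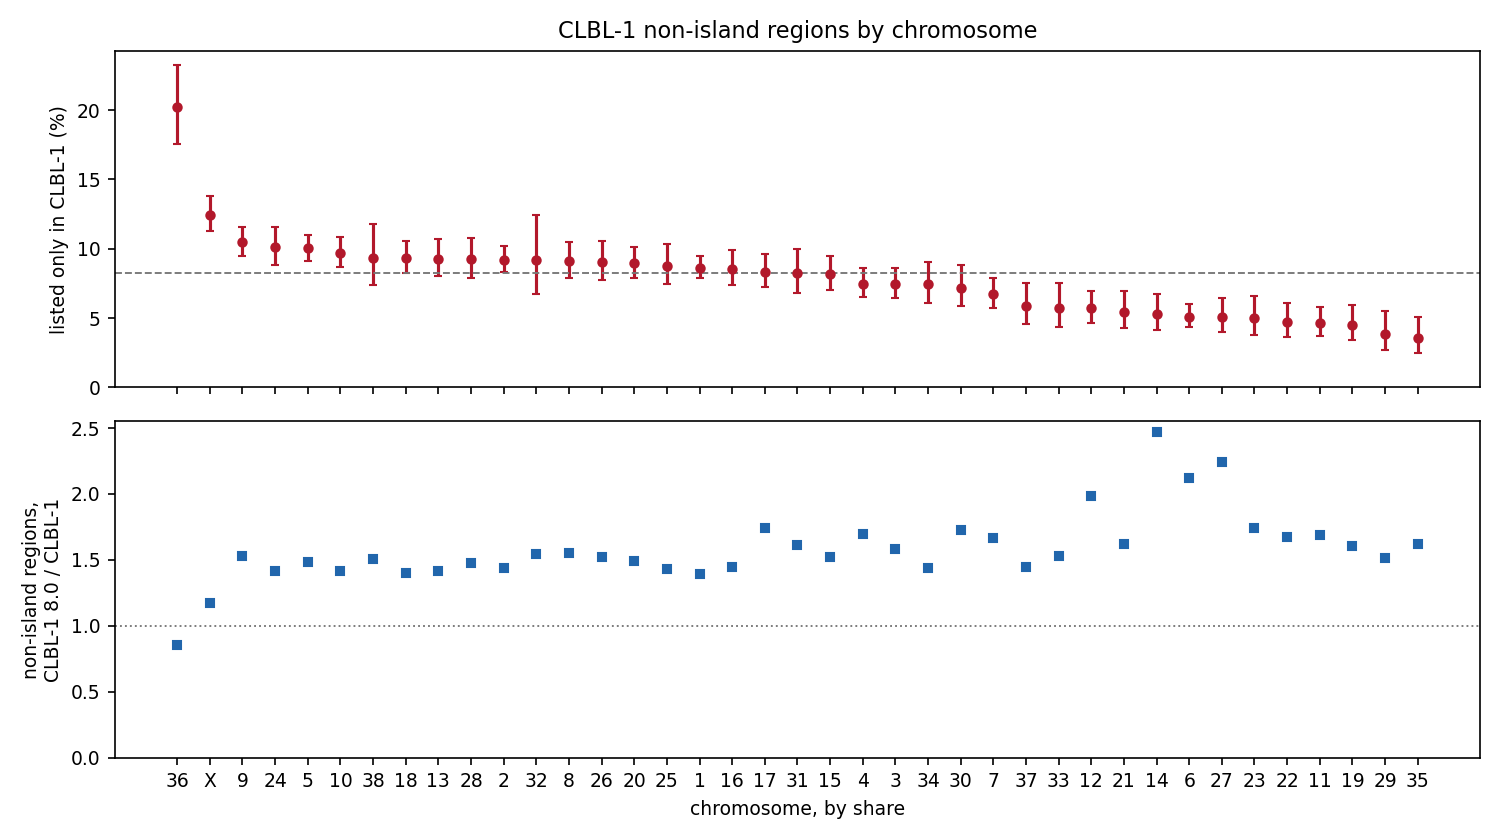
By chromosome, in order of share: CLBL-1 non-island regions listed only in CLBL-1 (%, with Wilson 95% intervals; the dashed line is the 8.25% of all) and, below, the ratio of non-island regions in CLBL-1 8.0 to those in CLBL-1 (dotted line at 1). Chromosome 36 has the highest share, 20.2%, and the lowest ratio, 0.857.

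Among windows of 1 Mb, the one with the most CLBL-1-only regions was on chromosome 13 from 36 to 37 Mb, with 39 of 205, and TSNARE1, which encodes a SNARE domain protein, held 9 of them. Chromosome 9 from 50 to 51 Mb had 38 of 159, with 11 in VAV2. Chromosomes 25 (46 to 47 Mb), 31 (36 to 37 Mb) and 2 (80 to 81 Mb) followed with 34, 34 and 33, led by AGAP1, PRDM15 and IGSF21. These windows were dense in both lists, with 178, 153, 142, 175 and 162 CLBL-1 8.0 non-island regions against 205, 159, 156, 192 and 164 in CLBL-1. By share, the windows at the top were sparse: 7 of 15 regions on chromosome 26 from 32 to 33 Mb, 19 of 41 on chromosome 36 from 29 to 30 Mb, 6 of 13 and 11 of 24 in 2 windows of chromosome X, and 10 of 25 on chromosome 36 from 20 to 21 Mb. The chromosome 36 window from 29 to 30 Mb reaches TFPI, the inhibitor of the tissue factor pathway of coagulation. TFPI had 5 CLBL-1 non-island regions, 4 of them CLBL-1-only with folds of 4.66 to 8.56, and 1 shared shore with a fold of 15.7.

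CLBL-1-only regions mostly stood singly among shared ones. Reading each chromosome in order, 4798 were single, 411 pairs and 63 triples had no CLBL-1 8.0 region or other CLBL-1 region between them, and 7 runs were longer. The longest run was 6 regions over 72952 bp without an assigned gene, chr36:29871860-29944811, with folds of 3.73 to 8.07. A run of 5 on chromosome 9 covered 15528 bp at GLT6D1, LOC102154510 and LOC491263, with folds of 3.44 to 5.51. Both were named after their values were seen.

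A run of 4 with the strongest enrichment lay in the kallikrein cluster of chromosome 1, which encodes secreted serine proteases known from epithelia. The 4 open regions spanned chr1:105876633-105916708 and each belonged to another gene. The region upstream of KLK7, 321 bp before its start by the table's distance, had a fold of 16.4 (chr1:105890885-105891387). The region upstream of KLK6, at 1675 bp, had a fold of 9.84, the intronic region of KLK8 had 9.16 and the intronic region of KLK5 had 6.44. No region of the CLBL-1 8.0 list lay between them, and the KLK7 region was 16835 bp from the nearest. At the edge of the run the lists differed the other way: KLK8 had an island and a shore region in its promoter, with CLBL-1 8.0 folds of 4.38 and 6.47, that were listed only in CLBL-1 8.0. Elsewhere in the cluster, the shores of KLK1 and KLK13 were listed in both lines, with CLBL-1 folds of 18.0, 20.5 and 11.5. In all, 4 of the 7 CLBL-1 non-island regions of kallikrein genes were CLBL-1-only.

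Genes held 3939 of the regions, and 1901 had no gene. Of 16450 genes with a CLBL-1 non-island region, 2573 held at least 1 CLBL-1-only region, which is 15.6%, and 1895 of these held exactly 1. Another CLBL-1 non-island region that was shared was found in 2236 of the 2573 genes, and a region listed only in CLBL-1 8.0 in 1579. For 166 genes the CLBL-1-only region came without any CLBL-1 8.0 region assigned to the gene. In 337 genes every CLBL-1 non-island region was CLBL-1-only, but 30 of those had 2 or more such regions and none had 4 or more. MCRS1, a component of chromatin-modifying complexes, was 1 of the 2 genes with 3, with folds of 2.19 to 2.59, and LOC111097275 was the other. Genes with a CLBL-1-only region had a median of 4 CLBL-1 non-island regions and genes without one had 1, and gene lengths on this build were not used here. The counts of 2236, 1579, 166 and 337 genes are not given here over all 16450 genes. They describe the 2573 genes and do not set them apart from the others.

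The genes with the most CLBL-1-only regions were genes with many regions in each list. AGAP1, which encodes a GTPase-activating protein of endosomal transport, held 21, with folds of 2.56 to 6.71 and a median of 4.31. It had 76 non-island regions in CLBL-1 8.0 against 91 in CLBL-1, and 8 of the 76 were listed only in CLBL-1 8.0. PTPRN2, a receptor-type tyrosine phosphatase of secretory vesicles, held 20 (folds 2.51 to 7.69), and it had 88 non-island regions in CLBL-1 8.0 against 76 in CLBL-1, so its total was larger in the resistant line. With the 2000 bp rule AGAP1 held 8 CLBL-1-only regions and PTPRN2 held 4. GRID1, a delta-type glutamate receptor subunit, and CSMD1, a large membrane protein with complement-control domains, held 16 each, of 97 and 112, and with the 2000 bp rule GRID1 held 4 and CSMD1 held 5.

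ZNF536, a zinc finger repressor known from neurons, held 13, of which 12 were shores and the highest fold was 3.30. PRKG1, a cGMP-dependent kinase, held 12 of 45. GRIK3, a kainate receptor subunit, held 11 of 35, VAV2, a guanine nucleotide exchange factor, 11 of 29, and HIVEP3, a zinc finger transcription factor, 11 of 41. IGSF21, MYH10, MYT1L and NTM held 10 each, of 44, 19, 54 and 73, and KCND3 and LRRC4C held 9 each, of 25 and 41. In each of these genes shared regions outnumbered CLBL-1-only ones, except in MYH10.

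MYH10 and KCND3 stood out from the others in this group by how few regions CLBL-1 8.0 had there. MYH10, which encodes the heavy chain of non-muscle myosin IIB and lies in the chromosome 5 stretch, had 11 non-island regions in CLBL-1 8.0 against 19 in CLBL-1. The 10 CLBL-1-only regions had folds of 3.19 to 7.53, with 8 in open DNA, and lay between 64393 and 120004 bp from the gene's start. The 3 CLBL-1 regions closer to the start were shared. The 9 shared ones had CLBL-1 folds of 3.45 to 14.3, so the folds of the sets overlapped. MYH10 held 6 CLBL-1-only regions under the 2000 bp rule and 5 among regions with a fold of at least 4. KCND3, the voltage-gated potassium channel subunit Kv4.3, had 16 non-island regions in CLBL-1 8.0 against 25 in CLBL-1, and no non-island region of KCND3 was listed only in CLBL-1 8.0. Of its 9 CLBL-1-only regions, 4 formed a run of 25947 bp in an intron (chr17:63495159-63521105), with folds of 9.52, 4.75, 6.29 and 5.15. PRKX, a protein kinase gene on chromosome X, had another run of 4, with folds of up to 6.78 over 12771 bp of its 3' UTR and an intron.

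**Figure D5:**
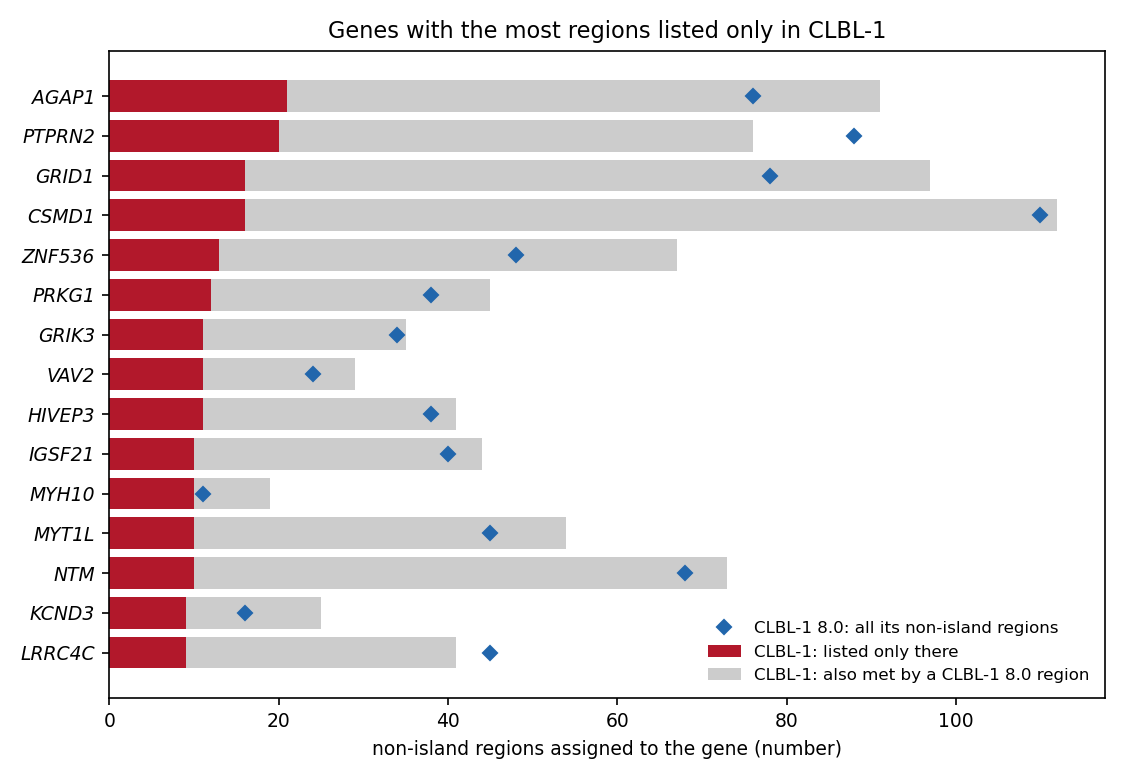
Number of non-island regions assigned to the 15 genes with the most CLBL-1-only regions: all those of CLBL-1 8.0 (diamonds) and those of CLBL-1 (bars), split into regions listed only in CLBL-1 and regions met by a CLBL-1 8.0 region. MYH10 has 11 in CLBL-1 8.0 and 19 in CLBL-1, while PTPRN2 has 88 and 76.

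Promoters held 406 of the CLBL-1-only regions, in 391 genes. That is 5.52% of the 7081 genes with a CLBL-1 non-island promoter region. Shores made up 235 of the 406, the median fold was 3.73, and 14 reached a fold of 8. In 198 of the 391 genes, CLBL-1 8.0 had no promoter region of any context, and in 164 another CLBL-1 promoter region of the gene was shared. The 391 genes were chosen by a promoter region that met no CLBL-1 8.0 region, which by itself raises the first number. Its share over all 7081 genes is not given here. The promoter regions of highest fold were those of LOC102152220 (17.6, chromosome 36), KLK7, LOC111094206 (12.4), LOC106558288 (12.3) and KLK6. The 3 LOC genes are uncharacterized in the tables.

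Among the other named genes at the top of this order, LEPR, the leptin receptor gene in the chromosome 5 stretch, had a promoter shore with a fold of 9.50 at 542 bp upstream (chr5:44776168-44776526), its 1 region in the CLBL-1 list. The nearest CLBL-1 8.0 region was 7523 bp away, and the 1 region assigned to LEPR in CLBL-1 8.0 was downstream of the gene. SMARCAD1, a chromatin remodelling ATPase, had a promoter shore with a fold of 8.82 (chr32:17088254-17088680), no other CLBL-1 non-island region, and no CLBL-1 8.0 region within 153559 bp. CD83, a surface protein of mature dendritic cells and activated B cells, had one with a fold of 9.33 at 735 bp upstream, but it lay 292 bp from a CLBL-1 8.0 region, and the island at the CD83 start was shared. COIL, which encodes the Cajal body protein coilin, had a region with a fold of 8.82 at its start, 178 bp from a CLBL-1 8.0 region. UHRF1, which reads hemimethylated DNA and guides DNMT1 to it, had 1 CLBL-1-only region, open DNA at 1371 bp upstream with a fold of 8.21, beside 8 shared ones. The gap to the nearest region thus divides these promoters: LEPR and SMARCAD1 stood kilobases away from any CLBL-1 8.0 region, and CD83 and COIL within 300 bp.

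TNFRSF13B encodes TACI, a receptor on B cells for the survival factors BAFF and APRIL, and lies in the chromosome 5 stretch. Its 2 upstream regions, at 139 and 4013 bp before the start, were open, CLBL-1-only and had folds of 7.22 and 9.10 (chr5:42448837-42449179 and chr5:42444963-42445368). Its 2 other CLBL-1 regions, shores in an intron and in the 3' UTR with folds of 14.6 and 11.6, were shared. The upstream regions were 16226 and 12352 bp from the nearest CLBL-1 8.0 region. TNFRSF13C, the BAFF receptor, held 2 CLBL-1-only regions of 5, with folds of 3.06 in the promoter and 2.85 at 216 bp from a CLBL-1 8.0 region.

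The open regions of highest fold outside promoters lay in introns, untranslated parts of genes and intergenic DNA. An open region in an intron of NFIA, a transcription factor of glial and blood cell development, had the highest of all, 18.7 (chr5:48592087-48592580), and lay 86942 bp from a CLBL-1 8.0 region, at the end of the chromosome 5 stretch. NFIA had 9 CLBL-1 non-island regions, and 2 of them were CLBL-1-only. An intergenic open region of chromosome 36 had 18.1, an intron of LPCAT2, an enzyme of phospholipid remodelling, 17.0, and a region annotated as 5' UTR of MID1, a ubiquitin ligase gene on chromosome X, 14.6. LOC111090929 and LOC111093614 followed LPCAT2 and KLK7 with 16.3 each, and LOC111091382 had 15.6.

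Among shores outside promoters, an intergenic shore of chromosome 8 with the enhancer flag had a fold of 15.6. An intron of AKAP10, which anchors protein kinase A, had 13.6. The first coding part of PACS1, a sorting protein of the trans-Golgi network, had 13.2, and in PACS1 6 further regions, in introns and coding sequence, were listed only in CLBL-1 8.0. A shore in an intron of the axon guidance gene NTN1 had 12.2, and an intergenic shore of 11.9 closed this group. AKAP10 and NTN1 both lie in the chromosome 5 stretch.

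The enhancer flag marked 271 CLBL-1-only regions with a median fold of 3.84, the same as over all CLBL-1-only regions. After the chromosome 8 shore and LOC106558288, the highest folds were 10.9 in an intron of LOC486353, 8.52 in an intron of FAM53B, 8.48 in LOC111093644 and 8.14 in LIMS2. The FAM53B and LIMS2 regions had a CLBL-1 8.0 region at 1597 and 767 bp.

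Lineage genes were then read as lists, by the share of their CLBL-1 non-island regions that were CLBL-1-only, against 8.25% over all. The B cell list of identity and receptor signalling genes had 22 of 190, 11.6% (7.77 to 16.9%), in 12 of 31 genes. IKZF1, the lymphoid transcription factor Ikaros, held 4 of 15, in introns with folds of 2.25 to 3.54, and TCF3, which encodes the E2A factors of early B cells, held 3 of 7 with folds up to 2.67. The T and NK cell list had 2 of 77, 2.60% (0.715 to 8.98%). The myeloid list had 4 of 27, and its gene CD68, a lysosomal protein of macrophages, had 1 promoter region in CLBL-1 (fold 3.67) and none in CLBL-1 8.0. The stromal and endothelial list had 12 of 83, 14.5% (8.47 to 23.6%), with 4 each in the collagen gene COL5A1 and the endothelial receptor gene TIE1. The epithelial list had 3 of 54, 2 of them in ELF3, an epithelial transcription factor. The interval of the stromal and endothelial list begins just above 8.25%, those of the B cell and T and NK cell lists contain it, and each list rests on few regions.

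Genes tied to drug response showed CLBL-1-only regions in small numbers. In the drug transport list 12 of 99 regions, 12.1% (7.07 to 20.0%), were CLBL-1-only. ATP7B, a copper-exporting ATPase, held 3 of 13, and SLCO4A1, an organic anion transporter, held 2 of 4, both with the promoter flag and with folds of 2.18 and 2.31. In the list of anthracycline metabolism and redox genes 2 of 51 were CLBL-1-only. The list of topoisomerases and the DNA damage response had 12 of 82, 14.6% (8.57 to 23.9%), of which 6 were in MGMT, the repair protein for alkylated guanine, out of 31. XRCC1, a scaffold of single-strand break repair, had 2 CLBL-1 non-island regions, both CLBL-1-only with folds of 4.41 in the promoter and 4.12 in coding sequence, and 3 other non-island regions in CLBL-1 8.0, listed only there. The apoptosis list had 10 of 73, 13.7% (7.61 to 23.4%). CASP9, the initiator caspase of the mitochondrial pathway, held 3 of 10 (folds 2.35 to 3.41), and the death receptor gene FAS held 2 of 3 (5.59 and 2.44), at 547 and 516 bp from a CLBL-1 8.0 region.

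Signalling genes of the PI3K, MAPK and NF-kB pathways had 28 of 203 regions, 13.8% (9.72 to 19.2%). RPTOR, the substrate-binding subunit of mTORC1, held 9 of 50. The list without RPTOR had 12.4% (8.10 to 18.6%), an interval that contains the 8.25% over all. PIK3R5, a regulatory subunit of PI3K gamma in the chromosome 5 stretch, held 5 of 10, with folds of 4.09 to 5.77. TSC2, an inhibitor of mTORC1, held 4 of 8, and MTOR itself 3 of 30. Genes of DNA methylation and chromatin had 18 of 206, 8.74%, with 5 of 14 in the histone deacetylase gene HDAC4 and 4 of 18 in DOT1L, a histone methyltransferase. The tumour suppressors known for promoter methylation had 14 of 144, 9.72%, including MGMT, 4 of 24 in OPCML and 1 of 6, at the promoter, in the Wnt antagonist gene DKK3. The Wnt, Notch and TGF-beta list had 24 of 255, 9.41%, with 4 each in SMAD3 and AXIN1 and 3 each in BMP7 and NOTCH1. Imprinted genes had 7 of 90, 7.78%, in GRB10 and KCNQ1. These last 4 lists were close to the share over all regions.

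Synapse and ion channel genes had 41 of 481 regions, 8.52%, led by DLGAP2 with 8 of 80, and cell adhesion and guidance genes 70 of 679, 10.3% (8.24 to 12.8%), of which PTPRN2 held 20 and CSMD1 16. Among gene families, the receptor-type tyrosine phosphatases had 42 of 243, 17.3% (13.0 to 22.5%), in 11 of 19 genes. Without PTPRN2 the family had 22 of 167, 13.2% (8.86 to 19.1%), with 7 in PTPRE, 4 in PTPRS and 3 in PTPRZ1. Collagens had 30 of 230, 13.0% (9.29 to 18.0%), in 15 of 38 genes, with 5 each in COL23A1 and COL13A1. Potassium channels had 43 of 395, 10.9%, of which KCND3 held 9, and solute carriers 61 of 763, 7.99%.

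Other families, apart from the ribosomal proteins, had shares below the 8.25% over all, with intervals that contain it. C2H2 zinc finger genes had 40 of 607 regions, 6.59% (4.88 to 8.85%), in 20 of 211 genes, and 13 of the 40 were in ZNF536. The HOX clusters had 3 of 59, of which 1 was at the promoter of HOXA3, the tripartite motif genes 3 of 76, and the orphan G protein-coupled receptors 4 of 96. Cadherins and protocadherins had 16 of 203, 7.88%, and keratins 8 of 110, 7.27%. Interleukins, chemokines and their receptors had 10 of 152, 6.58%, 1 of them at the promoter of the chemokine gene CXCL16 (fold 4.45). Olfactory receptor genes had 0 of 21, which at this number allows a share of up to 15.5% (Wilson 95%). The name pattern for ribosomal proteins had 10 of 95 regions, 10.5% (5.82 to 18.3%). It took in the kinase genes RPS6KA2 and RPS6KB2, which held 9 of its 10, so it describes kinases more than ribosomal proteins.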

How the data were processed

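The MethylCap-seq region list of each line was used as deposited. BWA, MACS2 and the CanFam3.1 build are named, per the submitters' processing notes; versions, settings, the background of the fold and how the eluates were combined are not given in the sources used here. Each row gives a region, a fold enrichment (the authors' linear ratio, per the file headers) and other values as deposited by the authors: coordinates, gene, signed distance to its start and flags. Whether positions count from 0 or 1 is not stated.

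A CLBL-1 non-island region counted as shared from 1 bp in common with any CLBL-1 8.0 region, islands included (own code, tested on simulated regions and checked against bedtools 2.31.1). Length is end minus start plus 1. Runs, windows of 1 and 5 Mb and distances were computed with Python 3.11.15, numpy 2.4.6 and pandas 2.3.3, and plots with matplotlib 3.10.9. Folds on a step were counted within 2e-05. Shares carry Wilson 95% intervals (statsmodels 0.14.6), which cover counting error only: regions are not replicates, neighbours are not independent, and no p-value is given. The members and the 16 gene lists and 14 families were chosen with earlier results of these data known. Genes were named by rule: the 15 with most members, the 12 promoter, 8 shore, 8 open and 6 enhancer members of highest fold, the leading windows, and per list up to 4 genes with a promoter member or at least 3 members. Of 2573 gene names, 2310 match a RefSeq symbol (UU_Cfam_GSD_1.0, names only). No DNA sequence is shown, since a genome of the files' build was not used here. Rows with displaced cells, 2 in the CLBL-1 list, were not members.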

Additional observations from a re-analysis of the deposited data

How the results depend on the processing

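Alternatives were recomputed for 25 results with 1 choice changed at a time, and not for the gene lists and families, chromosome X, the transcription start flag or the distances. Of 161 values 90 stayed within 1.5 times (counts) or the 95% interval of the reported value (shares and medians). With 50% of a region covered as the rule for sharing, the median fold was 3.90, the median length 351 bp, and the members were 8.45% of shores, 10.8% of open regions and 23.8% of chromosome 36. When a CLBL-1 8.0 region within 500 bp counted as shared, shores were 34.7% of the members and the median fold 3.96, and members were 5.05% of shores, 7.96% of open regions, 17.2% of chromosome 36 and 2.47% of chromosome 35. With 2000 bp, 2433 members remained, of which 18.2% were shores, 35.3% intergenic, 5.63% promoter and 3.41% enhancer regions, with a median fold of 4.41. They were 1.37% of shores, 5.17% of open regions, 12.9% of chromosome 36, 1.48% of chromosome 35 and 16.1% of the chromosome 5 stretch, and 133 genes had one at the promoter.

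With CLBL-1 regions at or above a fold of 4, there were 2695 members, of which 21.5% were shores and 35.6% intergenic, with a median fold of 4.84 and length of 348 bp. They were 2.34% of shores, 6.44% of open regions and 17.3% of chromosome 36, and 176 genes had one at the promoter. With both lists at or above 4, a CLBL-1 8.0 region of lower fold no longer counted as sharing, and there were 9436 members. Of these members 42.8% were shores, 29.6% intergenic, 8.01% promoter and 5.74% enhancer regions, with a median fold of 4.85 and length of 434 bp. They were 16.3% of shores and 16.4% of open regions, so the difference by context was gone under this rule, and 729 genes had one at the promoter. They were 23.0% of chromosome 36, 12.3% of chromosome 35 and 33.2% of the chromosome 5 stretch, against 16.4% over all, so the excess of chromosome 36 was smaller relative to all regions. With regions of at least 300 bp, shores were 41.6%, the median fold 3.98 and length 367 bp, and members were 5.59% of shores, 7.10% of open regions and 16.3% of chromosome 36. The cause of these shifts beyond the changed rule was not tested.

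Leaving out chromosome 36, or defining promoters by position, moved none of the values recomputed under them. Of 66 values for single genes and the kallikreins, 48 stayed within 1.5 times. Under the 2000 bp rule AGAP1 held 8 members, MYH10 6, CSMD1 5, GRID1 4, PTPRN2 4, RPTOR 2 and IKZF1 2. KCND3, PRKX, TNFRSF13B and the kallikreins stayed within 1.5 times there. Among CLBL-1 regions at or above a fold of 4, PTPRN2 held 13, AGAP1 12, MYH10 and GRID1 5 each, PRKX and RPTOR 4 each and IKZF1 0. PTPRN2 held 13 under the 500 bp rule. With both lists at or above 4, CSMD1 held 26, RPTOR 16 and PRKX 4. The counts for single genes and the chromosome 5 stretch were added after the data were seen.

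No paired analysis was possible because each line has 1 region list and no test was made. Read depth is unknown, no value has a replicate, and absence from a list is a call at the authors' threshold, not a measured level.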
